A study of Mus musculus with 23 samples.

Results

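The regions described here are 374 mouse genomic fragments outside annotated repeats and CpG islands. Their methylation reads were high in adult skeletal muscle tissue. By group mean, these fragments were low in proliferating myoblasts and in embryonic stem cells (ESC). They were chosen by a rule on the authors' scaled reads, a read count corrected for library depth. A fragment had to lie on chromosomes 1 to 19, to be at least 21 bp and under 2000 bp long, and to carry no CpG island, shore or repeat class in the deposited table. Each of the 3 muscle libraries had to reach 10 scaled reads, and the muscle mean had to be at least 3 times the myoblast mean plus 1 and at least 3 times the ESC mean plus 1. Of 11131 single-copy autosomal fragments of this length, 374 (3.36%) met the rule, out of 173430 fragments in the series. Another 5421 of these fragments also reached 10 scaled reads in every muscle library without meeting the fold limits, and they serve below as the other single-copy fragments.

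The study followed DNA methylation from ESC through myoblasts and myotubes to mature muscle with AIMS-seq, in 23 libraries of 9 groups. Skeletal muscle, taken as whole tissue from male mice, gave 3 libraries, of which Y27 and Y40 are of mixed 129Sv/C57BL/6J background and BL6 is C57BL/6J. Never cultured precursor cells, isolated fresh from the muscle of C57BL/6J males, gave 2 libraries: uninjured and 3 days after CTX injury. Precursors in proliferation conditions at passage 0 gave 2 libraries, from cultures 26 and 27, also C57BL/6J males. Proliferating myoblasts at passage 8 to 10 came from cultures 21, 26 and 27 (C57BL/6J males), and each culture was sampled again as myotubes after 1, 2 and 4 days in differentiation medium with horse serum. The ESC libraries came from 3 lines, with a technical replicate of the first: CGR8 (129Sv, male), RD1 (129X1/SvJ, male) and E14Tg2 (129/Ola, no sex given). Libraries held 6237851 to 14696855 reads. For the 3 muscle libraries no label states separate animals, and p-values throughout measure only the spread between the samples at hand.

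In AIMS-seq, DNA is digested with SmaI, which makes a blunt cut in the site CCCGGG unless methylation blocks it, and afterwards with XmaI, which opens the protected copies of that site with overhangs. PCR adaptors fit the overhangs alone. A fragment is thus read from DNA molecules that were methylated at the sites on either side of it, and its level cannot be read as a methylation percentage. In mammalian tissue most CpGs outside islands are methylated and promoters of active genes are often not. Whole muscle holds fibre nuclei together with vessel, blood, connective tissue and nerve cells, so more molecules per cell and more cells of a methylated type cannot be told apart in it.

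The sequences below are the first 6 fragments of 300 bases or less, in order of the muscle ratio, among those that overlap a gene or its promoter. They show the form of a member, a stretch between a CCCGGG site at either end. By this choice they are shorter than the median member, which has 399.5 bp. The ratio is the muscle mean over the larger of the myoblast and ESC means plus 1. Sequences were read from the mm9 genome, plus strand, and capitals mark the end sites and every CpG in between. Casz1 and Zfp112, which also rank among the 8 highest ratios, are too long to be printed.
Zfp385a promoter, chr15:103170652-103170901: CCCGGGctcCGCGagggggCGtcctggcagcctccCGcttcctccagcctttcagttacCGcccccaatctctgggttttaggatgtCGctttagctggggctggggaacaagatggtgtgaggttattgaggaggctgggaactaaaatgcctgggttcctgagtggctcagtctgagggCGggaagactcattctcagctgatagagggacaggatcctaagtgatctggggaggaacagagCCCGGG
Nos1 intron, chr5:118351252-118351360: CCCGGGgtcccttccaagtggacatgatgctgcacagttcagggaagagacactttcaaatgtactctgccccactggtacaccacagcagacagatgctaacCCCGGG
Pole4 intron, 145 bp fragment, chr6:82635033-82635183: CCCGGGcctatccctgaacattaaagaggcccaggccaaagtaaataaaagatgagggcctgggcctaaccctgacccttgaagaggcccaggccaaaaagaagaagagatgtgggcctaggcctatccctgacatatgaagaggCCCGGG
Pole4 intron, 57 bp fragment, chr6:82635178-82635240: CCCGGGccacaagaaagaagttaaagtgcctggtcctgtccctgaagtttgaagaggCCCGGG
Lypd3 promoter, chr7:25422053-25422235: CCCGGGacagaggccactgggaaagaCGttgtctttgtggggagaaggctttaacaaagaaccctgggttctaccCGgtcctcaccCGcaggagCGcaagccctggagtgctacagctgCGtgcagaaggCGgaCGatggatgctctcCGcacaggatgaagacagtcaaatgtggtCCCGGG
Epha2 intron, chr4:140880775-140881029: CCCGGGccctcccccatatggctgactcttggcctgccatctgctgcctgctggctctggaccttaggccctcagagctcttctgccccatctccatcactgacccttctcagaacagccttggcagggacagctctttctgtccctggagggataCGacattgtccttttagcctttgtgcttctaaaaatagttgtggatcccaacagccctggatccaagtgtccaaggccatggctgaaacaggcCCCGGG
The Zfp385a and Lypd3 promoter fragments hold 9 and 10 CpGs, end sites included. The Nos1 fragment and both Pole4 fragments hold 2, which are those of the end sites. Over all members, 33 of 374 hold no CpG between the end sites. The Pole4 fragments lie side by side, share an end site and carry a repeated motif that the deposited repeat class did not mark.

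The members' levels in muscle are what chose them and are given as description. Their median was 413.5 scaled reads in muscle Y27, 494.5 in Y40 and 204.5 in BL6. The muscle mean of a member ran from 12.7 to 8020 scaled reads, and the ratio ran from 3 to 31.9 with a median of 4.57. BL6 was the lowest of the 3 muscle libraries for 326 of 374 members. Y27 stood at a median of 2.00 times and Y40 at 2.30 times the BL6 level, while the other single-copy fragments had medians of 0.857 and 0.891 times BL6. As 1 library holds the C57BL/6J muscle, strain and library cannot be told apart here. In the groups the rule set low, the medians were 12, 70.5 and 104.5 scaled reads in myoblasts of cultures 21, 26 and 27, and 9, 35.5, 36.5 and 20 in CGR8, its technical replicate, RD1 and E14Tg2. The technical replicate pair, at 9 and 35.5, thus differed more than RD1 and E14Tg2 did, at 36.5 and 20.

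Outside the libraries of the rule, the members were not low everywhere, and the name "high only in muscle" went against the data in 1 culture. Their median reached 382.5 scaled reads in day 1 myotubes and 319.5 in day 4 myotubes of culture 27, both above that of BL6 muscle. Culture 26 stood at 40 and 60.5 scaled reads on the same days, and culture 21 at 11 and 10. The members are therefore called muscle-high fragments here, after the rule.

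**Figure D1:**
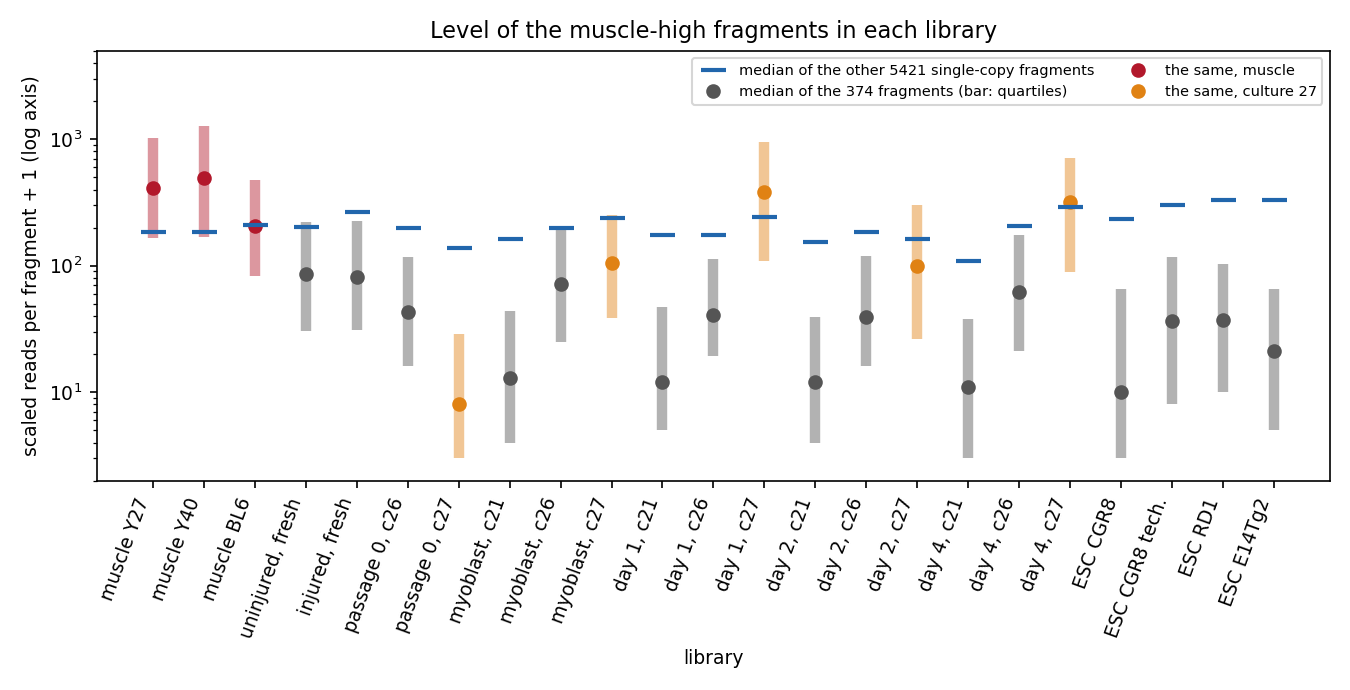
Scaled reads per fragment plus 1 on a log axis, in each of the 23 libraries (c21, c26 and c27 are the cultures). Points are medians and bars the quartiles over the 374 muscle-high fragments, and blue dashes are the medians of the other 5421 single-copy fragments. The medians are 413.5, 494.5 and 204.5 in muscle Y27, Y40 and BL6, day 1 and day 4 myotubes of culture 27 lie between the highest and the lowest of these, and passage 0 cells of culture 27 lie lowest with a median of 7.

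A fragment was called near the muscle level in a library if it held 33.3% or more of its muscle mean. In culture 27 this held for 340 of 374 members on day 1, for 161 on day 2 and for 309 on day 4. In culture 21 it held for 6, 12 and 12 members on days 1, 2 and 4, and in culture 26 for 14, 13 and 21. Of the other single-copy fragments, 60.7% to 99.4% were near the muscle level in each of these 9 myotube libraries. On the mean of 3 cultures, 233 members were near the muscle level on day 1, 19 on day 2 and 172 on day 4. Without culture 27 these counts were 11, 5 and 6. The rule set the mean of the myoblast libraries low, not each library. In myoblasts of cultures 21, 26 and 27, 12, 53 and 121 members were near the muscle level. Of the other single-copy fragments, 71.2%, 81.9% and 91.8% were so.

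The order of the cultures was the same for most members. On day 4, culture 27 was highest and culture 21 lowest for 295 of 374 members (78.9%), against 2177 of the other single-copy fragments (40.2%). On day 1 this order held for 293 members and on day 2 for 232, and the other fragments were counted on day 4 alone. The rule used the myoblast libraries of these cultures. The members' medians already had this order there, at 12, 70.5 and 104.5 scaled reads in cultures 21, 26 and 27. The contrast with the other fragments is therefore not free of the rule. Myotubes of culture 27 exceeded the BL6 muscle level in 259 members on day 1, in 41 on day 2 and in 235 on day 4. BL6 was the lowest muscle library for 326 members, and day 1 of culture 27 exceeded every muscle library in 47 members.

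**Figure D2:**
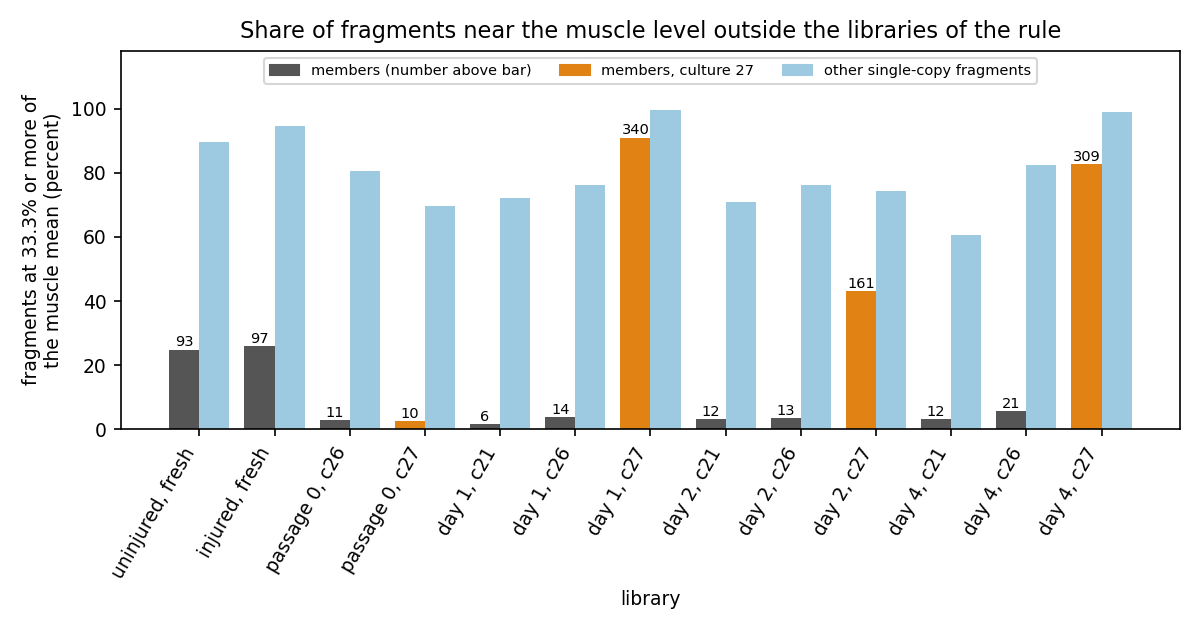
Percent of fragments that held 33.3% or more of their muscle mean, in the 13 libraries that the rule did not use. Dark and orange bars are the 374 members, with their number above, and light blue bars are the other 5421 single-copy fragments. Day 1 and day 4 of culture 27 reach 90.9% and 82.6% of members, the never cultured cells 24.9% and 25.9%, and the remaining cultured libraries other than day 2 of culture 27 stay under 6%.

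The members are shorter than the other single-copy fragments, so both sets were also compared between 200 and 600 bp. The 194 members of that length had medians of 775.5 and 559.5 scaled reads in culture 27 on days 1 and 4. The 1831 other fragments of that length had 791 on both days. On day 2 of culture 27 the members had 177.5 and the others 568, and at passage 0 of culture 27 they had 10 and 414. In culture 21 the members had 14.5 and 14 scaled reads on days 1 and 4, against 509 and 424 for the others. Within this length range the members were thus closest to the other fragments on day 1 of culture 27, and were below them there on days 2 and 4 and in culture 21 on days 1 and 4.

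Across differentiation the cultures did not move together. In culture 27 the members had a median of 104.5 scaled reads as myoblasts, 382.5 on day 1, 98.5 on day 2 and 319.5 on day 4. Culture 26 had 70.5, 40, 38 and 60.5 at these stages, and culture 21 had 12, 11, 11 and 10. Between day 4 and day 1 within a culture, the median log2 difference over members was -0.39 in culture 27, 0.43 in culture 26 and 0 in culture 21. Over the other single-copy fragments it was 0.07, 0.13 and -0.29 in these cultures. In culture 21 the members were low on both days, so their 0 says little. Day 4 was lower for 321 members in culture 27, and higher for 276 members in culture 26. These are 1 pair of libraries per culture, so the difference between cultures was not tested.

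**Figure D3:**
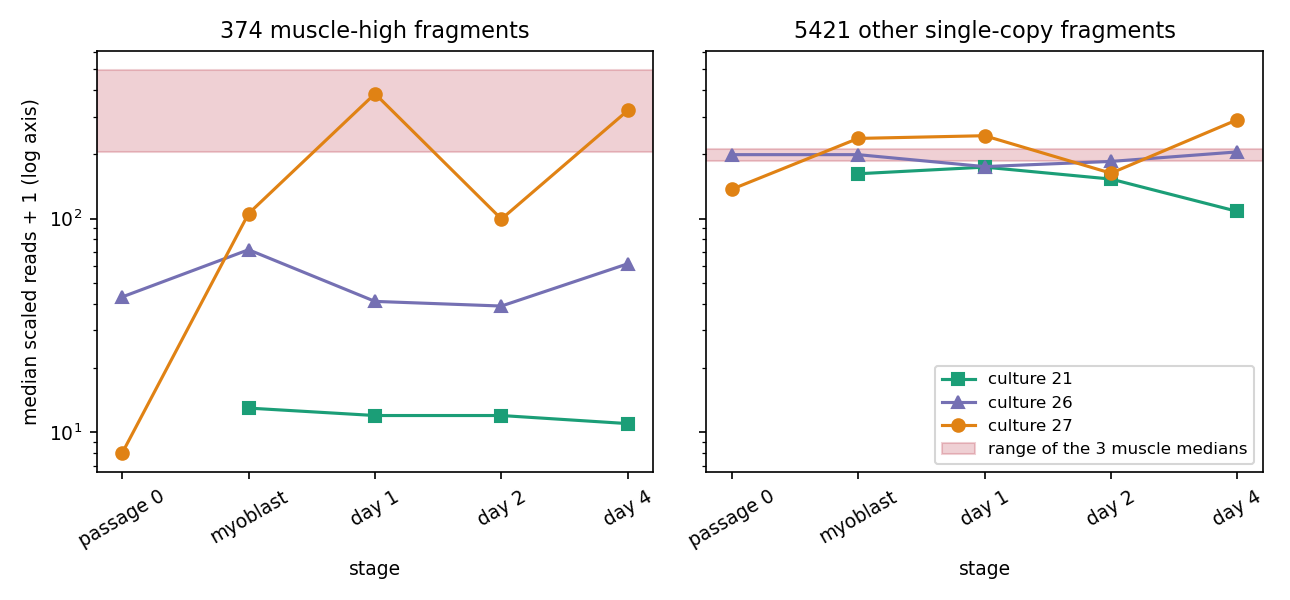
Median scaled reads plus 1 (log axis) by stage for each culture, for the 374 muscle-high fragments on the left and the other 5421 single-copy fragments on the right. The shaded band spans the medians of the 3 muscle libraries. Culture 27 goes between 7 at passage 0 and 382.5 on day 1 on the left, while on the right its medians stay between 136 and 289.

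Day 4 against day 1 myotubes, with 3 cultures at each stage, asks whether the members' methylation reads shift as myotubes mature. In edgeR's quasi-likelihood test on the counts of all 22151 fragments tested, 0 of 344 tested members were higher and 0 were lower at a Benjamini-Hochberg adjusted p under 0.05, and the low-count filter had left out the remaining 30. The share called over all fragments was 0% in each direction. At an unadjusted p under 0.05 edgeR gave 0 members and 33 fragments in all, and DESeq2 called 0 members. The share called by DESeq2 over all fragments was also 0% in each direction. The median log2 change was -0.44 over the members and -0.01 over all fragments tested. As the cultures pair these libraries, the fit was also made with the culture as a block: it called 0 members, gave 1 member and 827 of all fragments at an unadjusted p under 0.05, and put the median at -0.05, with 159 of 344 members above 0. The sign of the unpaired median rested on culture 27: it was 1.77 without the day 1 library of culture 27 and 0.52 without both of its libraries. With any 1 of the other 5 libraries left out it ran from -1.82 to -0.16.

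Freshly isolated, never cultured precursors were lower than muscle by the same measure but carried the members more often than passage 0 cells did. Their medians were 85.5 scaled reads in uninjured and 80.5 in injured samples, against 42 in culture 26 and 7 in culture 27 at passage 0. Near the muscle level were 93 members in uninjured and 97 in injured samples, against 11 and 10 in passage 0 cells of cultures 26 and 27. Of the other single-copy fragments, 89.7% and 94.5% were so in uninjured and injured samples, against 80.4% and 69.5% at passage 0. Both never cultured libraries exceeded both passage 0 libraries for 302 of 374 members (80.7%), against 2205 of the other single-copy fragments (40.7%). Passage 0 cells came from cultures 26 and 27, whose myoblasts the rule set low in members. This contrast with the other fragments is therefore not free of the rule. The 2 never cultured libraries shared 53 of the members near the muscle level, 57.0% of those of the uninjured and 54.6% of those of the injured sample.

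Tested over all 22196 fragments with n = 2 libraries a side, 0 of 339 members were higher and 0 were lower in never cultured than in passage 0 cells by edgeR at an adjusted p under 0.05. The filter had left out 35. Over all fragments, 0.0225% were called higher and 0% lower. At an unadjusted p under 0.05 edgeR gave 90 members (26.5%), 89 of them higher in never cultured cells, and 3259 of all fragments (14.7%). The median log2 change was 1.33 over the members and 0.02 over all fragments. It was 2.59 without culture 26 and 0.63 without culture 27 at passage 0. DESeq2 called 4 members higher and 0 lower, and over all fragments 0.545% higher and 0.0631% lower. The count depended on the passage 0 libraries: without culture 26 at passage 0, with culture 27 alone on that side, edgeR called 216 of 347 members higher (62.2%) and 11 lower (3.17%). Over all 24982 fragments of that fit it called 15.8% higher and 13.4% lower. Without culture 27 at passage 0 it called 3 members higher and 0 lower, against 0.981% and 0.0726% of all fragments.

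Day 4 myotubes were set against passage 0 cells in the same way, to ask what lies between the first culture passage and differentiated cells. Of 338 members tested among 22810 fragments, edgeR called 0 higher and 0 lower, with 0% called over all fragments in each direction and 36 members left out by the filter. At an unadjusted p under 0.05 it gave 24 members, all 24 with higher values on day 4, and 678 of all fragments. DESeq2 called 0 members, and 0.0219% of all fragments higher and 0% lower. The median log2 change was 1.96 over members and 0.03 over all fragments. It was 0.76 without the day 4 library of culture 27, and 3.29 without culture 26 and 1.33 without culture 27 at passage 0. Within culture 27, the median member level was 319.5 scaled reads on day 4 and 7 at passage 0. Within culture 26 the levels were 60.5 scaled reads on day 4 and 42 at passage 0.

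Never cultured cells against day 4 myotubes gave 0 members higher and 0 lower of 347 tested by edgeR, with 0% of 24535 fragments called in each direction and 27 members left out by the filter. At an unadjusted p under 0.05 edgeR gave 3 members, all 3 lower in never cultured cells, and 323 of all fragments. DESeq2 called 0 members, and 0.102% of all fragments higher and 0.0245% lower. The median log2 change over members was -0.70 against -0.19 over all fragments. It was 0.61 without the day 4 library of culture 27 and -1.11 without that of culture 21.

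Of the 8 fragments with the largest ratios and a gene, all but that of Zfp112 were near the muscle level in culture 27 myotubes alone or in none of the 13 libraries outside the rule. Casz1 encodes a zinc finger transcription factor of cardiac and vascular development. Its 355 bp fragment lies 7787 bp from a start site, in an intron (chr4:148186361-148186715). It had 1259, 1434 and 913 scaled reads in muscle Y27, Y40 and BL6. Myotubes of culture 27 had 1112, 162 and 424 scaled reads on days 1, 2 and 4, against 9, 8 and 19 in culture 21 and 21, 11 and 26 in culture 26. Never cultured cells had 71 and 29, passage 0 cells 42 and 18, myoblasts 2, 102 and 40 (cultures 21, 27 and 26) and ESC 0 to 2. Day 1 of culture 27 alone lay within the muscle range.

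Nos1 encodes neuronal nitric oxide synthase, which in muscle fibres sits with the dystrophin complex at the membrane. Its intronic 103 bp fragment, printed above, had 545, 1061 and 236 scaled reads in muscle Y27, Y40 and BL6. Culture 27 had 414, 164 and 339 on days 1, 2 and 4, culture 26 had 10, 7 and 26, and culture 21 had 1, 2 and 1. Epha2, a receptor for ephrins, went the same way, with 555, 898 and 270 scaled reads in muscle and 349, 42 and 282 in culture 27 on days 1, 2 and 4. On those days Epha2 had 12, 9 and 14 in culture 26 and 5, 2 and 3 in culture 21. For both of these fragments, days 1 and 4 of culture 27 exceeded BL6 muscle and no library of cultures 21 and 26 came near it. A second Nos1 intron member of 248 bp, beside the first, had 2286, 3662 and 801 scaled reads in muscle Y27, Y40 and BL6. In culture 26 that second fragment had 360 at passage 0 and 136, 123 and 256 on days 1, 2 and 4.

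The Lypd3 fragment, at the promoter of a membrane-anchored protein of the Ly6 family, had 162, 318 and 49 scaled reads in muscle Y27, Y40 and BL6. In culture 27 it had 174, 4 and 56 on days 1, 2 and 4, and cultures 21 and 26 had 0 to 5. The 244 bp promoter fragment of Zfp385a, a zinc finger protein gene, was low throughout. It had 38, 110 and 12 scaled reads in muscle and 31, 1 and 12 in culture 27 on days 1, 2 and 4. In every other library this fragment had 0 to 3. A second Zfp385a promoter member of 345 bp lies beside it and was higher, with 965, 982 and 409 scaled reads in muscle Y27, Y40 and BL6. That second fragment had 1204, 268 and 555 in culture 27 and 64, 43 and 103 in culture 26 on days 1, 2 and 4. For both promoters, day 2 of culture 27 was lower than days 1 and 4.

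Zfp112, a zinc finger protein gene, was also near the muscle level in 1 never cultured library. Its promoter fragment of 420 bp covers the start site (chr7:24897221-24897640). It had 368, 732 and 327 scaled reads in muscle Y27, Y40 and BL6, and 446, 91 and 255 in culture 27 on days 1, 2 and 4. Culture 26 had 0 as myoblasts and 1, 1 and 2 on days 1, 2 and 4, culture 21 had 8, 8, 5 and 7 at these stages, and the ESC libraries had 0. Never cultured cells had 177 (uninjured) and 52 (injured), against 0 and 1 in passage 0 cells of cultures 26 and 27. In raw reads these are 177 and 64, against 0 and 2, and a count of 0 allows up to 3 reads. Zfp112 had the lowest p of all members in the test of never cultured against passage 0 cells, with an unadjusted p of 0.000374 and an edgeR adjusted p of 0.210. DESeq2 gave it an adjusted p of 0.000207.

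The gene lists of muscle and of other cell types held 7 members among 295 single-copy fragments, summed over the lists. Over all single-copy fragments the share was 3.36%, at which lists of this size hold few members. Of 14 lists, 5 held a member and 9 held none. There were 0 members among 13 single-copy fragments of myogenic regulators, 25 of blood cell genes, 30 of endothelial genes, 21 of fibroblast genes, 28 of adipocyte genes and 15 of energy metabolism genes. Imprinted, neural and germ line genes had 0 members of 23, 25 and 12 fragments. Against 3.36% of all single-copy fragments, these lists are too short for 0 to say more than the counts. Contractile and calcium handling genes had 1 member of 23, pluripotency genes 2 of 18, HOX genes 2 of 9, Schwann cell genes 1 of 9, and transforming growth factor and Wnt signalling genes 1 of 44.

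Ckm encodes muscle creatine kinase, which buffers ATP in fibres, and its 852 bp fragment covers the start site (chr7:19996443-19997294). It had 207, 318 and 355 scaled reads in muscle Y27, Y40 and BL6, so BL6 was not the lowest here. Never cultured cells had 105 (uninjured) and 129 (injured), against 1 and 28 in passage 0 cells of cultures 26 and 27. Culture 26 had 1 in myoblasts and on each of days 1, 2 and 4, while culture 21 had 53 as myoblasts and 69, 35 and 13 on days 1, 2 and 4, and culture 27 had 65, 179, 28 and 149 at these stages. In the test of never cultured against passage 0 cells, Ckm had an edgeR adjusted p of 0.351, and 0.00218 without culture 27 at passage 0. Its level was thus at 1 scaled read in all 5 libraries of culture 26 and above that in every library of the other cultures.

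Such near absence in 1 culture was counted over all of its libraries. These include its myoblast library, which the rule used to set members low, so members and other fragments do not compare evenly here. In all 5 libraries of culture 26, 7 members had 2 scaled reads or less, and 6 of the 5421 other single-copy fragments did. They include fragments of Ckm, Gm7332, Pcx, Pole4 and Zfp112. In culture 21, 38 members and 144 of the other fragments had 2 or less in all 4 libraries, and in culture 27, 2 members and 0 of the others did in all 5.

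Dppa4 and Lin28a are genes of pluripotent cells, a nuclear protein of the early embryo and an RNA-binding protein that blocks let-7 processing. The 84 bp Dppa4 promoter fragment had 115, 132 and 63 scaled reads in muscle, and 10 in each never cultured library against 15 and 18 in passage 0 cells of cultures 26 and 27. All 9 myotube libraries had 12 to 27, so Dppa4 was among the members near the muscle level in none of the 13 other libraries. Lin28a had 76, 43 and 28 in muscle, 46, 20 and 60 in culture 27 on days 1, 2 and 4, and 0 to 10 in cultures 21 and 26 on those days.

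Hoxb13, the most posterior gene of its HOX cluster, had 938, 868 and 800 scaled reads at its promoter in muscle Y27, Y40 and BL6. Culture 27 had 1218, 327 and 745 on days 1, 2 and 4, against 26, 15 and 20 in culture 21 and 186, 164 and 225 in culture 26. Never cultured cells had 167 and 192, against 108 and 4 in passage 0 cells of cultures 26 and 27. The 3 muscle libraries were close to each other and day 1 of culture 27 exceeded them. The fragment at the Hoxa2 promoter, an anterior HOX gene, differed from Hoxb13 in culture 21, which had 237, 259 and 276 scaled reads on days 1, 2 and 4. Muscle had 841, 946 and 394, and passage 0 cells had 181 and 177.

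Erbb3 is a neuregulin receptor of Schwann cells and muscle. Its exonic 899 bp fragment had 791, 1237 and 443 scaled reads in muscle, 195 and 229 in never cultured cells, and 151 and 10 in passage 0 cells of cultures 26 and 27. On days 1, 2 and 4 Erbb3 had 703, 389 and 623 in culture 27, 160, 220 and 252 in culture 26 and 29, 19 and 29 in culture 21. Smad6, an inhibitor of bone morphogenetic protein signalling, had 372, 597 and 164 at its promoter in muscle, 128 and 65 in never cultured cells, and 40 and 3 at passage 0. On days 1, 2 and 4 Smad6 had 772, 156 and 412 in culture 27, 43, 51 and 78 in culture 26 and 6 on each day in culture 21. In the test of never cultured against passage 0 cells the edgeR log2 changes were 1.13 ± 0.86 for Erbb3 and 1.93 ± 0.91 for Smad6 (SE, n = 2 a side), with adjusted p of 0.474 and 0.349. The SE was worked back from the change and edgeR's test statistic. Hoxb13 had 1.43 ± 0.97 with an adjusted p of 0.433, Nos1 1.58 ± 0.85 with 0.370, Casz1 0.37 ± 0.65 with 0.757, Epha2 0.03 ± 0.70 with 0.986 and Dppa4 -1.26 ± 0.60 with 0.349. None of these passed the threshold. For each of Erbb3, Smad6, Hoxb13, Nos1 and Dppa4 the adjusted p passed it without culture 26 at passage 0, at 2.7e-06, 1.45e-06, 4e-08, 3.54e-05 and 0.0495. In that fit, with 1 passage 0 library, 29.2% of all fragments passed.

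**Figure D4:**
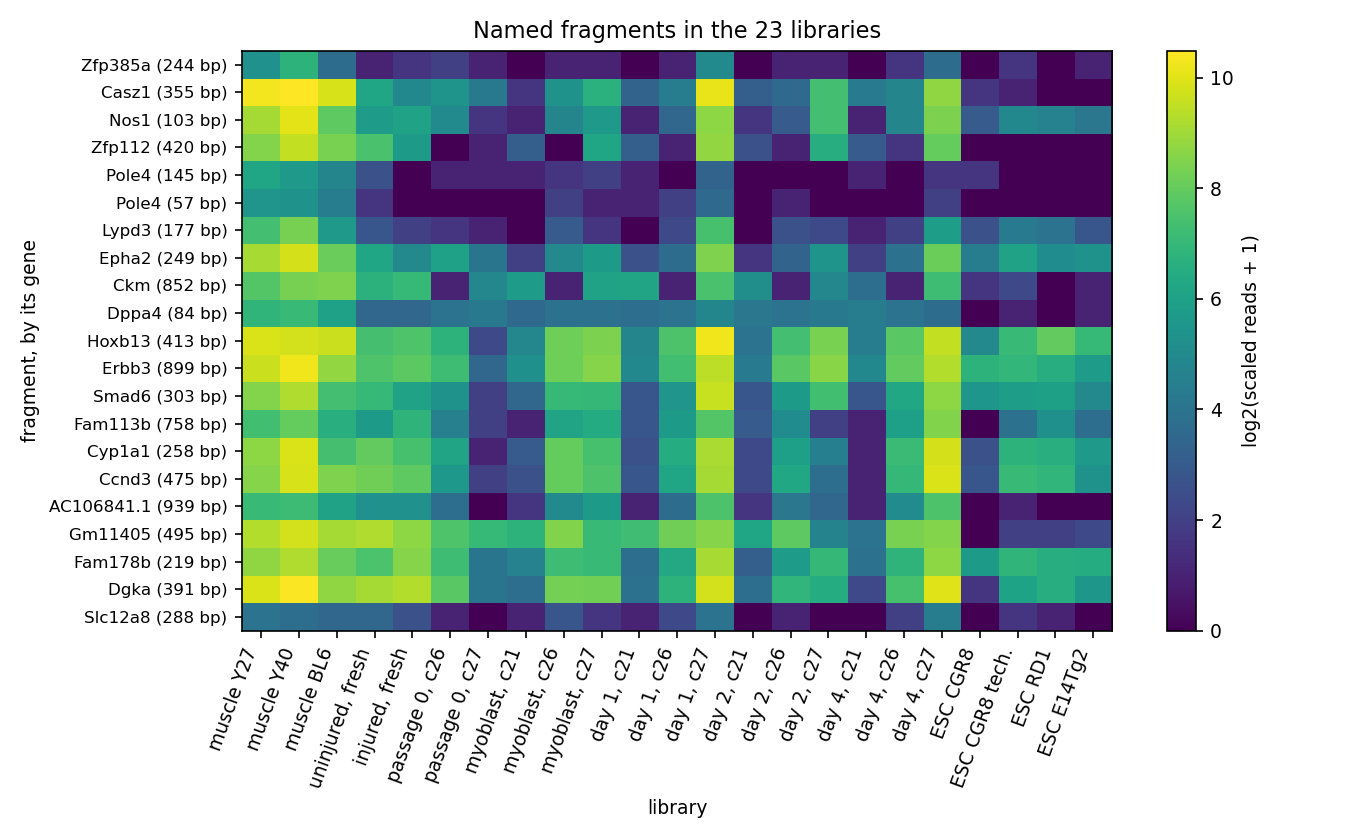
log2 of scaled reads plus 1 for the named fragments (rows, with their length) in the 23 libraries (columns). The columns of day 1 and day 4 of culture 27 resemble those of muscle for most rows, and the Ckm and Zfp112 rows are dark in the culture 26 columns.

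Some members came closer to muscle than others outside the rule's libraries. By mean day 4 level over muscle mean, the leading fragments with a gene were those of Fam113b (0.838), Cyp1a1 (0.675), Ccnd3 (0.662) and AC106841.1 (0.638). Each of these ratios rests on culture 27: Ccnd3, which encodes cyclin D3 of the G1 phase, had 961 scaled reads on day 4 in culture 27 against 1 in culture 21 and 126 in culture 26. Muscle had 380, 918 and 346. Cyp1a1, an enzyme of xenobiotic metabolism, had 886 on day 4 in culture 27, 1 in culture 21 and 141 in culture 26, and muscle had 411, 947 and 165. By the mean of never cultured cells over muscle, the leading fragments were those of the pseudogene Gm11405 (0.755), Fam178b (0.647), Dgka (0.626) and Slc12a8 (0.592). Dgka, a diacylglycerol kinase, had 536 and 619 scaled reads in uninjured and injured never cultured cells, 224 and 16 in passage 0 cells of cultures 26 and 27, and 945, 1389 and 433 in muscle. Gm11405 had 605 and 414 in never cultured cells, 192 and 131 at passage 0 and 612, 878 and 534 in muscle. As these members were picked for the ratios, their levels are a description.

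At the limit of the rule, the Rimbp2 and Samd1 promoter fragments lay just inside, with ratios of 3.00 and 3.01. An intronic fragment of Ikzf3 and an intergenic fragment on chromosome 7 lay just outside, with ratios of 2.98 each. Samd1 had 366, 563 and 270 scaled reads in muscle and 508 on day 4 of culture 27. Ikzf3, a lymphoid transcription factor gene, had 6595, 3277 and 4315 in muscle, and its day 4 levels of 3968, 1518 and 1257 in cultures 21, 27 and 26 put culture 21 highest.

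Where the members lie was not part of the rule beyond chromosome, length and class. Of 374 members, 88 (23.5%) lay in a promoter window (2000 bp before to 500 bp after a start), 33 (8.82%) in an exon, 89 (23.8%) in an intron and 164 (43.9%) between genes. All 11131 single-copy fragments had 18.4%, 21.7%, 29.7% and 30.2% in these classes, and the other single-copy fragments 13.0%, 20.4%, 34.2% and 32.4%. The members were shorter, with a median of 399.5 bp against 724 bp in all single-copy fragments. GC content was alike at 51.9% and 52.2%, and the median CpG density was 1.71 per 100 bp in members against 1.47 in all single-copy fragments and 1.30 in the other single-copy fragments. Fragments are not independent replicates, so these shares carry no test.

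Features went with the pattern over libraries. Outside the rule's libraries, 195 members were near the muscle level in culture 27 myotubes and in no other library of the 13, 53 were so in both never cultured libraries, and 26 were so in none. The 195 had a median length of 436 bp, 1.93 CpGs per 100 bp and 55 promoter fragments (28.2%). The 53 had 370 bp, 1.52 CpGs per 100 bp and 12 promoter fragments (22.6%). The 26 had 82 bp, 0.299 CpGs per 100 bp and 2 promoter fragments (7.69%), and their median muscle mean was 86.2 scaled reads against 393.5 over all members. This last class had the lowest medians of length, CpG density and muscle level of the 3.

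**Figure D5:**
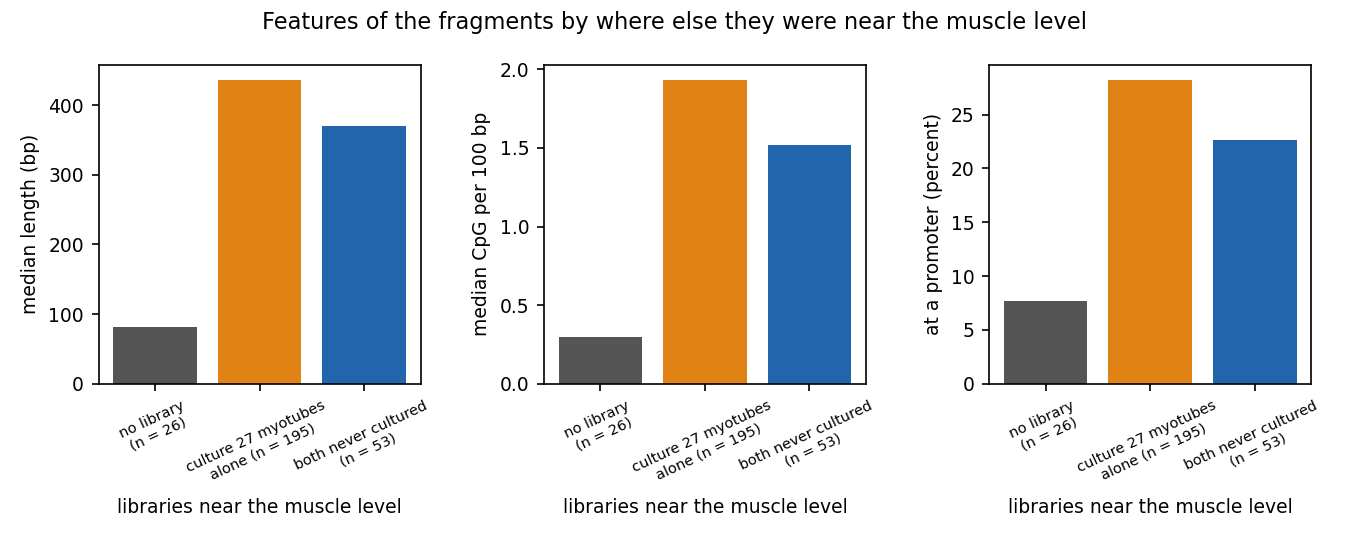
Median length (bp), median CpGs per 100 bp and percent at a promoter for members near the muscle level in none of the 13 libraries outside the rule (26), in culture 27 myotubes alone (195) and in both never cultured libraries (53). The first class is the shortest, with a median of 82 bp, and has the lowest CpG density.

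The single-copy label did not hold for every member. Taking words of 20 bases on either strand, 20 of 374 members (5.35%) shared 50% or more of their words with another single-copy fragment, as did 537 of all 11131 (4.82%). Of the 26 members near the muscle level in no other library, 10 were among these 20, and 9 of the 26 lay on chromosome 6. That chromosome held 41 members (11.0%), against 5.85% of all single-copy fragments. Of these 41 members, 4 (9.76%) shared 50% or more of their words, against 151 of all 651 single-copy fragments on chromosome 6 (23.2%). The share with any shared word went the other way. It was 34 of the 41 members (82.9%) against 401 of the 651 fragments (61.6%), and 111 of the 333 members on other chromosomes (33.3%). Runs of 3 or more members within 10000 bp of each other numbered 10, of which 5, with 31 members, lay on chromosome 6. The largest, at chr6:58110941-58120793, held 8 members of 144 to 583 bp outside genes, with medians of 206.5, 159.5 and 176.5 scaled reads in muscle Y27, Y40 and BL6 and 50.5 on day 4 of culture 27. The run in a Pole4 intron, a gene for a DNA polymerase epsilon subunit, held 7 members at chr6:82635036-82638068. It had 73, 71 and 64 scaled reads in muscle, 25 and 9 on days 1 and 4 of culture 27, 13 and 4 in never cultured cells and 3 and 1 at passage 0. A run of 4 fragments of 43 bp at chr12:60855342-60855599 had the highest ratios, of 21.8 to 31.9, and 4 of 4 shared 50% or more of their words with another fragment. Its medians were 116.5, 77.5 and 33 scaled reads in muscle and 3 and 2 in never cultured cells. In contrast, the 3 Lypd3 fragments at chr7:25421557-25422232 had a median of 0% of their words shared, with medians of 496, 847 and 204 in muscle and 556 and 446 on days 1 and 4 of culture 27. The part that read placement between such copies has in these levels was not tested.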

How the data were processed

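Methylation was read by AIMS-seq in 23 libraries. Per the labels' protocols, sequencing used an Illumina GA2 and reads were mapped to mm9. Bowtie 0.11.3 and DESeq (no version) are listed in the submitters' processing notes. The authors deposited raw read counts per fragment and a scaled score, which was checked to be each count times 1 factor per library. Levels here are the deposited scaled score, and tests used the deposited counts. A footer row of the scaled table was left out. PCR reads carry no molecular identifiers, so counts are not independent molecules.

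Both ends of each fragment were compared with the mm9 sequence, where 100% had the enzymes' site. The gene annotation was GENCODE M1. Tests were edgeR 4.0.16 (quasi-likelihood, 2-sided, TMM, filterByExpr at its minimum count of 10, adjusted by Benjamini-Hochberg over all tested fragments), with DESeq2 1.42.0 as an alternative, in R 4.3.3. The script was tested on simulated counts. The remaining tables and figures used pandas 2.3.3, numpy 2.4.6 and matplotlib 3.10.9 in Python 3.11.15. Comparisons of muscle, myoblasts or ESC were not tested, since the rule used them.

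The members and gene lists were chosen with earlier results of these data known. Named fragments were (a) the 8 largest ratios with a gene, (b) the largest ratio per list, (c) called members, of which there were 0, (d) the 4 highest with a gene by day 4 and by never cultured level over muscle, and (e) 2 on either side of the limit. Other fragments of Lypd3, Zfp385a and Nos1, Lin28a, Hoxa2 and the runs were added after their values were seen. Between days 4 and 1, deviations of same-culture libraries correlated at 0.79, 0.83 and 0.75 (cultures 21, 27 and 26), so cultures pair these libraries. Between day 4 and passage 0 the correlations were -0.28 (culture 27) and 0.27 (culture 26).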

Additional observations from a re-analysis of the deposited data

Results flagged for a closer look

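Between day 4 and day 1 myotubes of 1 culture, the median log2 change over members was 0.43 in culture 26 and -0.39 in culture 27, which are opposite directions. Over the other single-copy fragments the medians were 0.13 and 0.07 in cultures 26 and 27. The difference between the cultures was not tested, since each culture gave 1 library per stage. Between day 1 myotubes and myoblasts the members' medians were also opposite, at 1.58 in culture 27 and -0.62 in culture 26. Those of the other single-copy fragments were 0 and -0.14. This difference between the cultures was not tested either. Myoblasts were among the libraries the rule used.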

How the results depend on the processing

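The count of members was 374, and it was 386 and 356 with a minimum of 5 and 20 scaled reads, 623 with a 2-fold limit and 145 with a 5-fold limit. It was 397 with raw counts brought to the same total and 305 to 448 when a muscle, myoblast or ESC library was left out. With equal totals within 17 length bins it was 422, of which 300 are among the 374, and without members with a copied end it was 339. These last 2, the fits with length offsets and those without culture 27 were chosen after seeing the data. Without culture 27, members near the muscle level by group mean were 11, 5 and 6 on days 1, 2 and 4, against 233, 19 and 172 with it.

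Counts of called members stayed at 0 in both directions under every alternative for day 4 against day 1 myotubes and for never cultured cells against day 4 myotubes. For day 4 against passage 0 cells, 10 of 374 members (2.67%) were higher with no low-count filter, against 0.372% of all fragments tested. For never cultured against passage 0 cells, members higher were 4 by DESeq2, 1 with library totals and 15 with no low-count filter (1.18%, 0.295% and 4.01% of those tested), against 0.545%, 0.419% and 0.371% of all fragments. With a library left out, 0 to 216 were higher and 0 to 11 lower. The highest counts of both came without culture 26 at passage 0, where 15.8% of all fragments were higher and 13.4% lower. With the culture as a replicate block, 0 members were called for day 4 against day 1 and against passage 0, and their medians were -0.05 and 2.47. Where a library left out leaves 1 on a side, it is assumed to vary like the others. The cause was not tested.

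In the test of never cultured against passage 0 cells, the log2 change of Epha2 (0.03) turned to -0.037 with fragments of 21 to under 2000 bp alone, -0.13 with 9 groups in 1 fit and -0.35 with length offsets. With a library left out it ran from -0.88 (without the uninjured library) to 0.81 and was -0.56 without passage 0 of culture 27. That of Casz1 (0.37) ran from -0.59, without the uninjured library, to 0.94.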
